A study of Mus musculus with 6 samples.

Results

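Small leucine-rich proteoglycans are secreted matrix proteins whose core is a chain of leucine-rich repeats, most of them carrying chondroitin, dermatan or keratan sulfate chains. They bind collagen and set the width and spacing of its fibrils, and several of them hold or present growth factors such as TGF-beta. Fibroblasts are a main source of them in connective tissue. Their genes lie in a few tight chromosomal clusters: in the mouse, Prelp and Fmod are near each other on chromosome 1, Aspn, Omd and Ogn stand in a row on chromosome 13, Dcn and Lum are neighbours on chromosome 10, and Bgn is on the X chromosome.

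Accessibility was measured here by ATAC-seq at 8 such genes: Prelp, Fmod, Aspn, Omd, Ogn, Bgn, Dcn and Lum. The members were the regions of the deposited table that carried one of these gene names, at any distance from the start site, and the regions with no gene whose centre lay within 50 kb of one so named. This gave 33 of the 63430 regions: 9 assigned to 6 of the genes and 24 assigned to none. No region of the table as used here carried the name Dcn or Lum, so those 2 genes were not analysed under this rule. The genes were chosen from earlier results of this same contrast, in which the Prelp and Aspn promoters were among those with the lowest values relative to control. All their differences below are therefore a description. Calls by limma are counted for them only beside the share over all regions of the same kind, and nothing is read from those counts.

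The cells were NIH/3T3, a line of mouse embryonic fibroblasts, and both groups had Cas13d, a CRISPR nuclease directed at RNA, knocked in. One group was transfected with a guide RNA that directs this nuclease to Actg1 mRNA, which encodes cytoplasmic gamma-actin (Actg1 guide, 3 libraries). The other was transfected with a guide against GFP as control (GFP guide, 3 libraries). The series was designed to look at chromatin when an mRNA is degraded. The time after transfection and whether the line is 1 clone are not in the labels. The design text calls the 3 libraries of a group biological replicates without naming separate cultures, so p-values measure the spread between these libraries, which may be technical. ATAC-seq reports where the Tn5 transposase can reach DNA, not how much RNA a gene makes, so the loss of Actg1 mRNA itself was not measured.

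Estimated reads in regions were 5676435 to 9527293 for the Actg1 guide libraries and 6785910 to 9472862 for the GFP guide libraries. Replicates 1 and 2 of the GFP guide could not be told apart beyond sampling noise (chi-square per region 0.988, p = 0.976, 51081 regions) and were counted as 1 sample in the fits reported here, except where 6 libraries are named. The other pairs within a group gave 1.04 to 1.12. Log2 fold changes are of the Actg1 guide over the GFP guide on the scale log2(signal + 1), where signal is the authors' normalised read number per region, and each comes with the standard error (SE) of limma's fit over the whole table. Of 10 fibroblast marker genes, 8 had a region within 1 kb of the start site, Pdgfra and Thy1 being the exceptions, with a summed signal of 3300 to 3414 in Actg1 guide and 3686 to 3783 in GFP guide libraries. The cartilage genes Col2a1, Acan, Comp, Matn1 and Col9a1 had none, nor did the bone genes Sp7, Bglap, Ibsp and Alpl or the leukocyte genes Ptprc, Spi1 and Cd3e. Runx2, the only bone marker with such a region, had 52 to 69 against 117 to 132, and Cd68, the only leukocyte marker with one, had 91 to 112 against 42 to 56. Sox9, the only cartilage marker with one, had 331 to 419 against 370 to 425, and Krt8, the only epithelial one, 95 to 132 against 98 to 117. None of 4 adipocyte markers had a region within 1 kb of its start. Counting assigned regions at any distance, 3 of the 4 had one, as did 2 of 4 leukocyte, 2 of 6 cartilage and all 10 fibroblast markers. Of 3 tendon markers, 2 had a region within 1 kb (sums of 681 to 710 against 738 to 772), as did 3 of 4 smooth muscle markers (414 to 436 against 463 to 536). The part of these shifts in the results below was not tested, and a change in some cells cannot be told apart from a smaller one in all cells.

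For 4 of the genes a region of the table overlapped the 250 bases upstream of the RefSeq start site, and these sequences are shown because the promoter values below come from regions that overlap them. The overlap was 219 of 250 bases at Prelp, 210 at Aspn, 196 at Ogn and 43 at Bgn, so some of the marked letters lie outside the measured region. All are from RefSeq on GRCm38.p6, the assembly also called mm10, which is the build the submitters' processing notes name. The windows are chr1:133921402-133921651 on the minus strand for Prelp, and on the plus strand chr13:49544193-49544442 for Aspn, chr13:49607765-49608014 for Ogn and chrX:73483351-73483600 for Bgn. Each runs 5′ to 3′ up to the base before the start site, and capitals mark matches to the motifs given after them.
Prelp: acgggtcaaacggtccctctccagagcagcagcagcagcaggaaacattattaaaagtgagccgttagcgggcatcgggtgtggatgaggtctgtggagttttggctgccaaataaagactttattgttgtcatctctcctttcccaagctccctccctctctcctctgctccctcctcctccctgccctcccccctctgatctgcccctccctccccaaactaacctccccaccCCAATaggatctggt
Aspn: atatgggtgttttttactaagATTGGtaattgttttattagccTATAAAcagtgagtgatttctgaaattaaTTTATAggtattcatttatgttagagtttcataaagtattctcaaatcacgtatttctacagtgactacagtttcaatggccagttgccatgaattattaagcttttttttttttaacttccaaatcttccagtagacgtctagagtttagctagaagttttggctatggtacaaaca
Ogn: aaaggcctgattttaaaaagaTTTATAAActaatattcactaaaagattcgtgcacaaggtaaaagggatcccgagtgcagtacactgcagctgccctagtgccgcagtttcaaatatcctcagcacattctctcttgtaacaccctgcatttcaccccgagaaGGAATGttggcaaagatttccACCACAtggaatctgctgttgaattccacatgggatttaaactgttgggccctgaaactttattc
Bgn: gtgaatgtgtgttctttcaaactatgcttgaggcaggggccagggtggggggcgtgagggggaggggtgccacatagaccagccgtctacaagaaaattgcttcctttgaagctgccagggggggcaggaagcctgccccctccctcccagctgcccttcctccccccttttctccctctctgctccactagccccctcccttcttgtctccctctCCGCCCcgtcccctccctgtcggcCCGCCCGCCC

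The windows were searched on both strands for 7 motifs. These were the TATA box, spelled TATAAA, the CCAAT box, spelled by its name, the GC box, spelled GGGCGG, the AP-1 motif, spelled TGANTCA, the TEAD motif, spelled GGAATG, the RUNX motif, spelled TGTGGT, and, by name alone, the CArG box that serum response factor binds. The Prelp window held 1 CCAAT box, ending 11 bases before the start site, a motif found in 33.8% of 32851 RefSeq promoter windows of the same length. In the Aspn window there were 2 TATA boxes (found in 12.4% of windows), 1 on each strand and far from the start, and 1 CCAAT box. Ogn had 2 overlapping TATA matches, 1 TEAD match (12.6% of windows) and 1 RUNX match (14% of windows). The Bgn window held 3 GC boxes (32.7% of windows), 2 of them overlapping. No letters of the AP-1 motif (6.75% of windows) or the CArG box (1.47%) were found in these 4 windows, nor any of the 7 motifs in the Fmod and Omd windows, neither of which overlapped a region assigned to its gene. A match here is a match of letters only.

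The 6 promoters differed in base composition. Aspn had 30% G and C, lower than all but 1.47% of the promoter windows, while Bgn had 64.4% and Prelp 55.6%, against a median of 52.4%. Ogn had 42%, Omd 38.4% and Fmod 51.2%. Each of the 6 held between 1 and 7 CpG dinucleotides, with an observed-to-expected ratio of 0.11 to 0.37 against a median of 0.37, so none stood above the median.

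At the promoters of the chromosome 1 and chromosome 13 genes, accessibility was lower with the Actg1 guide at Prelp, Aspn and Ogn, and it was also lower at a region inside Fmod. Bgn overlapped between the groups, and Omd had 1 region higher and 2 that overlapped. Of the 9 regions assigned to a member gene, 5 had every Actg1 guide library below every GFP guide library and 1 had every Actg1 guide library above. Over all tested regions assigned to a named gene, 23.5% were below in this way and 21.1% above. By limma, at the threshold used here of an adjusted p under 0.05, 5 of the 9 were called lower and 1 higher, where 17.5% and 16.2% of named-gene regions were called. As the genes were chosen from this contrast, nothing is read from these counts. All 9 regions passed the filter on low values, but Prelp and the downstream Aspn region did so only through the GFP guide libraries. The median log2 fold change of the 9 was -0.69, against -0.01 over all tested regions assigned to a named gene. Nothing is read from this median either.

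**Figure D1:**
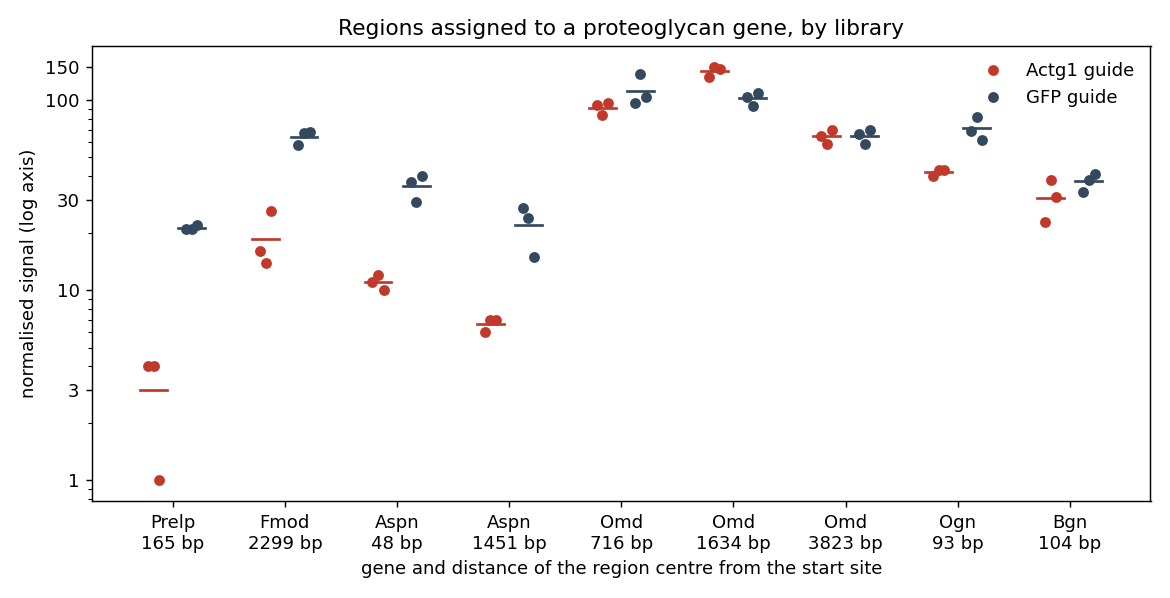
Normalised signal (log axis) of the 9 regions assigned to a proteoglycan gene, with 1 point per library, Actg1 guide left and GFP guide right, and a line at the mean of 3 libraries. Prelp, Fmod, both Aspn regions and Ogn are lower in every Actg1 guide library, the Omd region 1634 bp from the start is higher, and the other 2 Omd regions and Bgn overlap.

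Prelp encodes a heparin- and collagen-binding member that lies where basement membranes meet connective tissue. Its single region (chromosome 1, 133921433 to 133921725) covered 219 of the 250 bases shown above, centred 165 bp upstream of the start site. Its signal was 4, 4 and 1 in the Actg1 guide libraries, against 21, 21 and 22 in the GFP guide libraries. The groups lay far apart and the GFP guide libraries were nearly equal. The log2 fold change was -2.61 (SE 0.517), and 0.228% of all tested regions, at any level of signal, had a lower one. Nothing is read from this rank, since the genes were chosen from this contrast with the low Prelp promoter known. These are few reads: about 5, 3 and 1 in the Actg1 guide libraries and 26, 18 and 23 in the GFP guide libraries. With a pseudocount of 5 the log2 fold change was -1.75, and leaving out single libraries gave -2.83 to -2.17. By the mean of all 6 libraries, which includes the low Actg1 guide values, 2.1% of regions within 1 kb of a start site had less signal than Prelp.

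Fmod, which encodes fibromodulin, a keratan sulfate carrier that limits collagen fibril width in tendon and other tissues, had a region 2299 bp downstream of its start, wholly inside the gene (chromosome 1, 134039411 to 134039695). The Actg1 guide libraries had 16, 14 and 26, and the GFP guide libraries 58, 67 and 68. Every Actg1 guide library lay far below every GFP guide library, replicate 3 being the highest of the Actg1 guide. The log2 fold change was -1.80 (SE 0.243), a fold of 0.287.

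Aspn encodes asporin, a collagen- and TGF-beta-binding member that carries a run of aspartates in place of a sugar chain. Its promoter region (chromosome 13, 49544233 to 49544556, centred 48 bp from the start) had 11, 12 and 10 in Actg1 guide libraries, against 37, 29 and 40 in GFP guide libraries. A second region 1451 bp downstream had 6, 7 and 7 against 27, 24 and 15. Both regions were thus lower in all Actg1 guide libraries. GFP guide replicate 3 was the lowest of its group at the downstream region and the highest at the promoter. Reads were few here too: at the promoter about 14, 9 and 8 with the Actg1 guide and 45, 25 and 41 with the GFP guide. Downstream they were about 7, 5 and 6 against 33, 21 and 16. The log2 fold changes were -1.64 (SE 0.298) at the promoter and -1.43 (SE 0.400) downstream, and with a pseudocount of 5 they were -1.37 and -1.08.

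Ogn, the gene of osteoglycin or mimecan, a keratan sulfate proteoglycan of cornea, bone and vessel wall, had 1 region centred 93 bp from the start (chromosome 13, 49607819 to 49608086). Its signal was 40, 43 and 43 with the Actg1 guide, against 69, 82 and 62 with the GFP guide. The groups were apart, with the nearest libraries at 43 and 62. The log2 fold change of -0.69 (SE 0.177) was smaller than that at Aspn or Prelp.

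Omd encodes osteoadherin, a keratan sulfate proteoglycan of mineralised tissue, and lies between Aspn and Ogn. Its region 1634 bp downstream of the start (chromosome 13, 49583929 to 49584263) had 132, 150 and 145 in the Actg1 guide libraries and 104, 93 and 109 in the GFP guide libraries, with a log2 fold change of 0.45 (SE 0.117). This was the 1 assigned region that was higher with the Actg1 guide. The region 716 bp upstream had 94, 84 and 96 against 96, 137 and 104, where the groups met at 96. Its log2 fold change of -0.27 (SE 0.131) varied with the GFP guide libraries, being -0.13 without replicate 2 and -0.39 without replicate 1. This upstream region was not called by limma as reported, but was with the replicate block or without GFP guide replicate 1. The region 3823 bp downstream had 65, 59 and 70 against 66, 59 and 70, nearly the same values, and a log2 fold change of -0.04 (SE 0.158) whose sign turned when Actg1 guide replicate 2 (0.03), GFP guide replicate 1 (0.01) or GFP guide replicate 3 (0.04) was left out.

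Bgn encodes biglycan, which carries chondroitin or dermatan sulfate chains, binds TGF-beta and can signal through Toll-like receptors when released from the matrix. Its promoter region (chromosome X, 73483558 to 73483854, of which a fraction of 0.9 lay inside the gene) had 23, 38 and 31 in Actg1 guide libraries, against 33, 38 and 41 in GFP guide libraries. The groups overlapped, as Actg1 guide replicate 2 equalled GFP guide replicate 2. The log2 fold change was -0.33 (SE 0.228), and it ran from -0.50 to -0.15 when single libraries were left out.

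The order of the regions by level differed between the groups. Per 100 bp of region, the mean signal in the Actg1 guide libraries was 42.5 at the Omd region 1634 bp from its start, 24.6 and 18.6 at the Omd regions 716 and 3823 bp away, 15.7 at Ogn, 10.3 at Bgn, 6.55 at Fmod, 4.57 and 3.4 at the Aspn regions 1451 and 48 bp away, and 1.02 at Prelp. In that order only Bgn and Fmod overlapped over their 3 libraries. In the GFP guide libraries the same Omd region had 30.4, followed by 30.3 at the Omd region 716 bp away, 26.5 at Ogn, 22.6 at Fmod, 18.7 at the third Omd region, 15.1 at the downstream Aspn region, 12.6 at Bgn, 10.9 at the Aspn promoter and 7.28 at Prelp. Among those neighbours, Fmod stood above the third Omd region and the Aspn promoter above Prelp, and each other pair overlapped. Fmod therefore ranked 6 of 9 in Actg1 guide cells and 4 of 9 in GFP guide cells, and Prelp was lowest in both.

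The 24 regions with no gene around these genes differed between the loci. Of the 24, 21 passed the filter on low values, and 12 of those had all Actg1 guide libraries below all GFP guide libraries, 1 had them above and 8 overlapped. The 12 were 6 at Bgn, 3 around Prelp, 2 around Fmod and 1 at the chromosome 13 genes, where 1 lay above and 3 overlapped. Over all tested regions with no gene, 26.4% lay below in this way and 26.7% above. By limma 9 of the 21 were called lower and 1 higher, where 21.9% and 22.1% of such regions were. The lower calls of the Bgn regions 6.77 kb upstream and 27.4 kb downstream ended without Actg1 guide replicate 1 and replicate 3, respectively. Others ended without GFP guide replicate 3, which leaves the GFP guide with 1 sample. Regions 32 kb upstream of Prelp, 8.87 kb downstream of Fmod, and 42 and 17.8 kb upstream of Bgn gained a call without 1 Actg1 guide library. The Fmod region and both Bgn regions also gained it with 6 separate libraries, with or without the replicate block. The one 42 kb upstream of Bgn gained it with 1 other filter and 1 other scaling as well. The median log2 fold change of the 21 was -0.42, against -0.0040 over all such regions. Nothing is read from these counts either, since the loci were chosen from this contrast. At the edge of the 50 kb window, the farthest region inside it, 42.1 kb from the Bgn region, had 42, 50 and 44 with the Actg1 guide against 61, 63 and 60 with the GFP guide. The nearest one outside, 53.6 kb from the Fmod region, had 254, 239 and 255 against 331, 319 and 332.

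**Figure D2:**
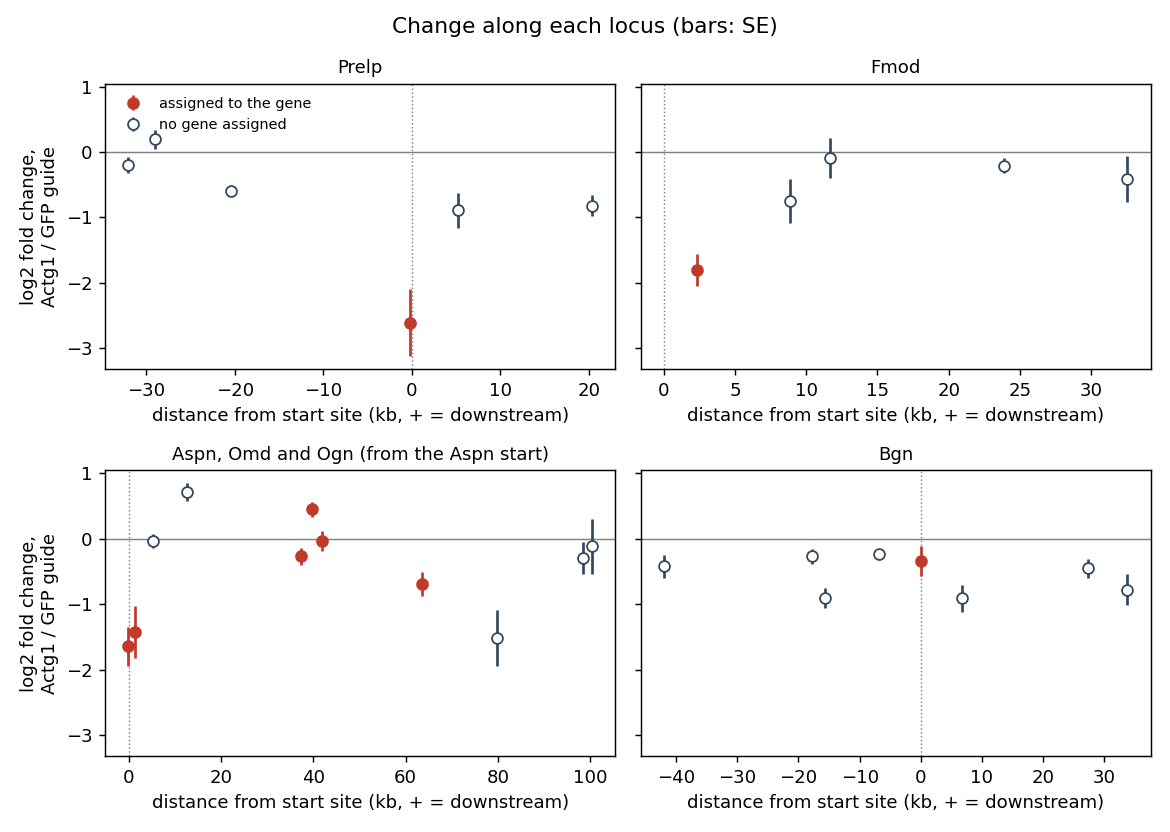
Log2 fold change (Actg1 guide over GFP guide, bars SE) against distance from the start site in kb, for the 30 tested regions of the 4 loci; filled points are regions assigned to the gene and open points have no gene. Points lie below 0 over most of each locus, and the chromosome 13 locus holds both the lowest Aspn points and 2 regions above 0.

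Around Prelp, the strongest region lay 20.4 kb upstream of the start, with 240, 234 and 252 in the Actg1 guide libraries and 372, 354 and 368 in the GFP guide libraries. The groups were well apart at a log2 fold change of -0.59 (SE 0.0793). Inside the Prelp gene, 5.24 kb downstream, a weak region had 15, 18 and 18 against 33, 32 and 32, a log2 fold change of -0.89 (SE 0.268). A region 20.3 kb downstream, within Optc (opticin, the neighbouring member of the same family), had 46, 43 and 47 against 87, 80 and 78, a log2 fold change of -0.82 (SE 0.166). The other 2 regions, farther upstream, overlapped between the groups, with log2 fold changes of 0.19 (SE 0.147) and -0.20 (SE 0.119). In the same window, 2 regions of an unnamed lincRNA gene (ENSMUSG00000100987), which the rule leaves out, had log2 fold changes of -0.98 and -0.79 (adjusted p = 7.01e-09 and 0.000114 by limma).

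Around Fmod the flanking regions changed less than the region inside it. The strongest, 23.9 kb downstream, had 105, 127 and 110 in Actg1 guide libraries against 133, 137 and 128 in GFP guide libraries, a log2 fold change of -0.21 (SE 0.120). Its groups were 1 unit apart. A second region in the Fmod gene, 8.87 kb from the start, had 18, 9 and 12 against 24, 21 and 21, a log2 fold change of -0.75 (SE 0.330). The other 2 regions overlapped between the groups, at -0.09 (SE 0.308) and -0.42 (SE 0.352). The promoter of Btg2, an antiproliferative early gene within 50 kb of Fmod, had 515, 462 and 502 against 635, 566 and 564 (log2 fold change -0.24, SE 0.0625, adjusted p = 0.00176 by limma).

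The chromosome 13 genes showed the widest mix of directions. By the RefSeq bounds, Aspn, Omd and Ogn all lie within Cenpp, a centromere protein gene, so regions there fall in that gene too. Inside Aspn, 12.7 kb from its start, a region with no gene assigned had 105, 103 and 113 in Actg1 guide libraries and 66, 68 and 63 in GFP guide libraries, a log2 fold change of 0.71 (SE 0.136). It was higher in every library while the Aspn promoter was lower in every library. A stronger region 5.37 kb into Aspn had 170, 176 and 163 against 177, 168 and 175, with overlapping groups and a log2 fold change of -0.03 (SE 0.100). At the far end of Ogn, 16.2 kb from its start, a weak region had 7, 3 and 10 against 16, 25 and 18, a log2 fold change of -1.52 (SE 0.431). The other 3 regions, beyond Ogn, overlapped between the groups: 2 had log2 fold changes of -0.30 (SE 0.241) and -0.12 (SE 0.422), and 1 was too weak to test, at 10, 4 and 7 against 4, 9 and 3. Summed over the 12 regions of this locus, the signal was 683, 681 and 691 with the Actg1 guide and 707, 743 and 698 with the GFP guide, a fold of 0.963. The promoter of Nol8, the next gene along, had 492, 464 and 467 against 473, 455 and 461 (log2 fold change 0.04, adjusted p = 0.687 by limma).

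At Bgn, 8 of the 10 regions passed the filter and all 8 had log2 fold changes below 0, from -0.91 to -0.23. The strongest, 6.77 kb upstream, had 228, 243 and 252 in Actg1 guide libraries and 282, 272 and 290 in GFP guide libraries. It was lower by a little over the spread of the libraries, at a log2 fold change of -0.23 (SE 0.0839). A region 15.7 kb upstream had 48, 76 and 71 against 131, 122 and 115, and one inside Bgn, 6.69 kb downstream, had 25, 30 and 36 against 46, 63 and 60. Both had a log2 fold change of -0.91 (SE 0.156 and 0.206), larger than that of the Bgn promoter between them. The other 4 tested regions had log2 fold changes of -0.27 to -0.78, and only the one 17.8 kb upstream overlapped between the groups. The 2 regions too weak to test had 2, 3 and 4 against 7, 16 and 5, and 2, 0 and 2 against 13, 8 and 14. Summed over its 10 regions, the Bgn locus had 574, 655 and 665 against 833, 859 and 882, a fold of 0.731, where the Prelp locus had 0.721 and the Fmod locus 0.692. The promoter of Haus7, a spindle protein gene in the same window, had 445, 418 and 435 against 515, 517 and 544 (log2 fold change -0.29, SE 0.064, adjusted p = 0.000263 by limma).

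**Figure D3:**
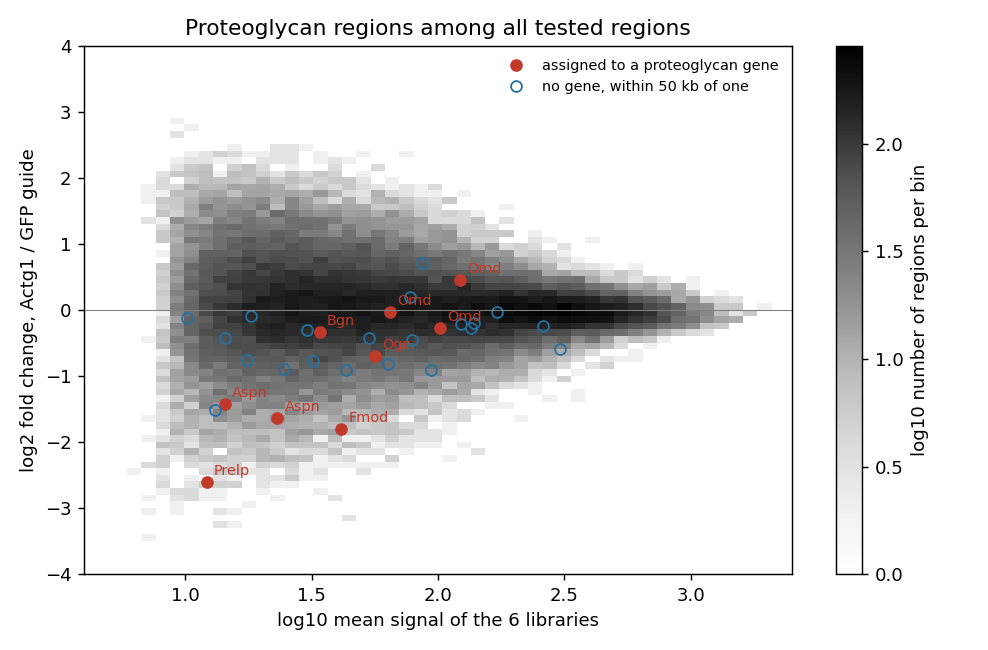
Log2 fold change (Actg1 guide over GFP guide) against the log10 mean signal of the 6 libraries; grey shading counts the tested regions (of 61327) within the axes, red points are the 9 regions assigned to a proteoglycan gene and blue circles are the 21 tested regions with no gene near them. Prelp, both Aspn regions and Fmod lie toward the low side of the cloud, Prelp and Aspn at low signal, and Omd lies within it at higher signal.

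The signal averaged over all 6 libraries, which includes the difference between the groups, differed among the regions. That of the Prelp region was above 7.41% of all regions in the table, that of the Aspn promoter above 24.2%, of Fmod above 42.5% and of Ogn above 51.6%. The 3 Omd regions stood above 55.3% to 70.6%. Regions of low signal had wider log2 fold changes throughout the table, as the plot of all tested regions shows. The promoters most alike to Prelp in level and pattern, by the Euclidean distance of log2(signal + 1) over the 6 libraries among 9991 named promoter regions, were Slc39a12, a zinc transporter gene (distance 1.55), Trpv2, a cation channel gene (1.60), and Gm5737 (1.79). For the Aspn promoter they were Aox1, an aldehyde oxidase gene (0.740), Xpnpep2, an aminopeptidase gene (0.763), and Tnni1, slow skeletal troponin I (0.786). Aox1 had 13, 12 and 11 in Actg1 guide libraries against 41, 45 and 49 in GFP guide libraries.

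The genes around this family in the matrix, taken from lists of related genes, went both ways. For scale, limma called 33.7% of 14953 tested regions assigned to a named gene, 16.2% higher and 17.5% lower, and 41.3% of all 61327 tested regions. Of other leucine-rich repeat matrix genes, a list that holds further members of the same family such as Optc, 4 of 9 had regions. Of their 7 regions 2 were higher and 0 lower, with a median log2 fold change of 0.06. Those 2 lay away from the start sites. At Podnl1, a podocan-like gene, the region 3651 bp away had 169, 168 and 179 against 122, 126 and 123 (log2 fold change 0.47, SE 0.106, adjusted p = 0.000329 by limma). At Tsku, which encodes the secreted signalling modulator tsukushi, the region 1010 bp away rose by 0.26 (SE 0.0805, adjusted p = 0.00704 by limma), a call that ended without Actg1 guide replicate 1 (0.22) or GFP guide replicate 3 (0.23). The regions at the start sites of both genes did not pass, at 0.06 and -0.06. The region assigned to Optc had -0.18 on this scale (SE 0.318, adjusted p = 0.688 by limma). The other region within Optc, given above with those around Prelp (-0.82), has no gene assigned and is not among the 7.

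Enzymes that build the sugar chains of these proteins had 26 regions at 20 of 26 genes, of which 3 were higher and 6 lower, 34.6% in all, with a median log2 fold change of -0.03. B4galt7, a galactosyltransferase of the linker that joins chain to core protein, rose at a region 942 bp from its start, with 82, 73 and 79 in Actg1 guide libraries against 31, 43 and 38 in GFP guide libraries (log2 fold change 1.04, adjusted p = 2.18e-06 by limma), while the region 168 bp away had 0.01 (SE 0.107). Csgalnact1, which starts chondroitin chains, rose by 0.80 at a region 5198 bp away (adjusted p = 4.33e-06 by limma), with -0.22 (SE 0.118) at its promoter. B4galt4, a galactosyltransferase of keratan sulfate, rose by 0.71 at a region 816 bp away (adjusted p = 0.021 by limma), and its region 79 bp from the start had -0.62 and did not pass (SE 0.273, adjusted p = 0.0656 by limma). The promoters of Dsel and Chst14, an epimerase-like and a sulfotransferase gene of dermatan sulfate, had log2 fold changes of -0.31 and -0.38 (adjusted p = 0.000272 and 0.00294 by limma). The promoter of Chst3, a chondroitin sulfotransferase gene, had -0.48 (adjusted p = 0.0488 by limma). Leaving out GFP guide replicate 3 leaves the GFP guide with 1 sample, and the calls of B4galt4 (0.49), Dsel (-0.23), Chst14 (-0.39) and Chst3 (-0.66) ended. B4galt4 also lost its call without Actg1 guide replicate 3 (0.65). Chst3 lost its call without any of Actg1 guide replicates 1, 2 and 3 or GFP guide replicate 1, at -0.55, -0.52, -0.38 and -0.45, or with no filter on low values (-0.48).

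Among growth factors and receptors that these proteoglycans bind, 3 of 24 regions were higher and 7 lower, 41.7% in all, with a median log2 fold change of 0.03. A region 3687 bp from the start of Bmp4, a bone morphogenetic protein gene, had 37, 51 and 46 in Actg1 guide libraries against 10, 5 and 14 in GFP guide libraries (log2 fold change 2.0, SE 0.266, adjusted p = 6.04e-08 by limma), and a stronger one 3339 bp away had 0.07 (SE 0.063). A region 4414 bp from P2rx7, an ATP-gated channel that biglycan engages, had 40, 41 and 36 against 9, 14 and 12 (log2 fold change 1.65, adjusted p = 1.16e-06 by limma). The promoter of Ccn2, connective tissue growth factor, rose by 0.23 (adjusted p = 0.00229 by limma), and without GFP guide replicate 3 the same value of 0.23 did not pass. Egfr, a receptor bound by decorin, had 76, 62 and 76 against 96, 113 and 107 at its promoter (log2 fold change -0.57, adjusted p = 0.00124 by limma, a call lost at -0.55 without GFP guide replicate 3). Regions of Tgfb2 and of Lrp1, an endocytic receptor for decorin, had log2 fold changes of -0.40 and -0.35 (adjusted p = 0.0199 and 0.00101 by limma). The Lrp1 region 665 bp from its start had 0.03 (SE 0.0491) and did not pass. The Tgfb2 call ended without Actg1 guide replicate 1, GFP guide replicate 2 or GFP guide replicate 3, at -0.35, -0.33 and -0.46.

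Collagen genes whose fibrils these proteoglycans coat had 7 regions higher and 5 lower of 26, 46.2% in all, and a median log2 fold change of 0.04. The region of Col5a3, a type V chain, 2251 bp from its start had 567, 541 and 570 in Actg1 guide libraries against 270, 250 and 290 in GFP guide libraries (log2 fold change 1.02, adjusted p = 1.28e-15 by limma). Regions of Col1a1 and Col5a1 rose by 0.70 and 0.63 (adjusted p = 1.49e-09 and 5.4e-05 by limma). Their regions nearest the start sites, 20 and 226 bp away, had 0.09 (SE 0.1305) and -0.01 (SE 0.0608) and did not pass. The Col6a3 promoter, of a type VI chain that binds decorin and biglycan, had 23, 20 and 23 against 69, 82 and 69 (log2 fold change -1.67, SE 0.210, adjusted p = 1.95e-08 by limma). Col1a2, the partner chain of Col1a1, had a region 819 bp from its start with 146, 146 and 151 against 250, 249 and 255 (log2 fold change -0.77, adjusted p = 1.84e-08 by limma). Other called regions of the same genes went the other way: Col1a2 was higher 2383 bp away (0.53) and Col1a1 lower 2465 bp away (-0.54), with adjusted p = 4.01e-05 and 3.72e-05 by limma. Col3a1 was higher 2580 bp away (0.58, adjusted p = 0.0298 by limma), and these 3 regions were added after their values were seen. Col3a1 had -0.59 at a region 4702 bp away (adjusted p = 0.0111 by limma), and that call ended without GFP guide replicate 2 (-0.47) or GFP guide replicate 3 (-0.66).

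Proteases that cut these proteoglycans or their collagen partners had 4 regions higher and 7 lower of 24 tested, 45.8% in all, and a median log2 fold change of -0.09. Mmp13, a collagenase that also cleaves fibromodulin, had 36, 54 and 34 in Actg1 guide libraries against 9, 22 and 14 in GFP guide libraries at a region 3302 bp away (log2 fold change 1.40, adjusted p = 1.45e-05 by limma), and -0.30 (SE 0.164) at its promoter. Mmp14, a membrane-bound protease, rose by 0.50 at a region 1016 bp away (adjusted p = 0.000161 by limma), with -0.24 (SE 0.119) at its promoter and -0.31 (adjusted p = 0.02 by limma) at a region 1841 bp away, added after its values were seen. Bmp1, the procollagen proteinase that also trims the biglycan propeptide, had a region at 3535 bp with a log2 fold change of 0.81 and one at 4709 bp with -0.40 (adjusted p = 0.000565 and 0.0342 by limma). The Mmp2 promoter, of a gelatinase, had 27, 14 and 20 against 38, 37 and 46 (log2 fold change -1.04, adjusted p = 0.00112 by limma), and Pcolce, the enhancer of Bmp1, had -0.37 (adjusted p = 0.0254 by limma). Without GFP guide replicate 3 the calls of Mmp2 (-0.90) and the lower Bmp1 region (-0.45) ended. That Bmp1 call also ended without Actg1 guide replicate 1 (-0.39), Actg1 guide replicate 2 (-0.36) or GFP guide replicate 2 (-0.38), and the Pcolce call without Actg1 guide replicate 2 (-0.37), Actg1 guide replicate 3 (-0.34) or GFP guide replicate 2 (-0.28).

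Other proteoglycan core proteins had 4 regions higher and 4 lower of 28, 28.6% in all, and a median log2 fold change of -0.06. Hspg2, the basement membrane proteoglycan perlecan, rose by 0.34 and 0.39 at regions 5222 and 1097 bp from its start (adjusted p = 0.00215 and 0.00777 by limma), and Sdc3, a syndecan, by 0.47 at a region 2332 bp away (adjusted p = 0.0178 by limma). The Hspg2 region 97 bp from its start had -0.07 (SE 0.0739) and did not pass. The other 3 Sdc3 regions did not pass and had log2 fold changes below 0: -0.41 (SE 0.231) at 87 bp, -0.67 (SE 0.347) at 3571 bp and -0.34 (SE 0.250) at 4858 bp. The promoters of the glypican genes Gpc4 and Gpc6 had log2 fold changes of -0.42 and -0.45 (adjusted p = 0.000201 and 0.0117 by limma), and a region of Sdc4 4741 bp away had -0.39 (adjusted p = 0.00269 by limma). A stronger Sdc4 region 821 bp away had -0.02 (SE 0.0676) and did not pass. The Hspg2 region 1097 bp away (0.31), Sdc3 (0.44), Gpc4 (-0.35) and Gpc6 (-0.41) did not pass once GFP guide replicate 3 was left out. That Hspg2 region also lost its call without GFP guide replicate 2 (0.27), and Sdc3 and Gpc6 without Actg1 guide replicate 1 (0.46 and -0.38).

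**Figure D4:**
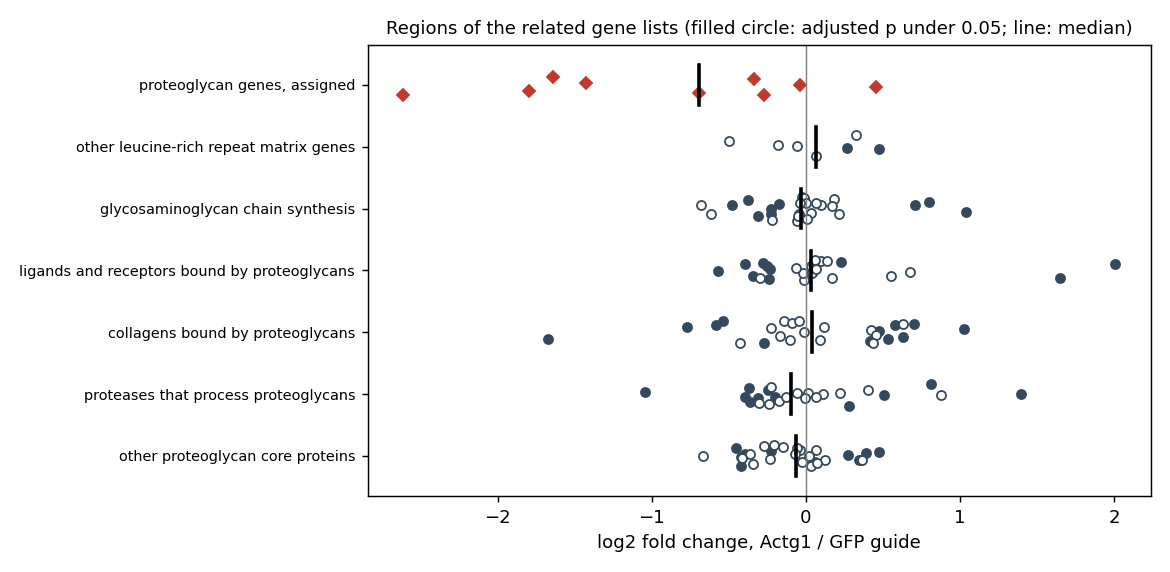
Log2 fold change (Actg1 guide over GFP guide) of each tested region of the 9 assigned proteoglycan regions (red diamonds) and of the 6 related lists (circles, filled where limma's adjusted p was under 0.05), with a black line at each median. The diamonds have a median of -0.69 and the medians of the 6 lists lie between -0.09 and 0.06. Nothing is read from this difference, since the proteoglycan genes were chosen from this contrast.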

How the data were processed

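Cells were lysed and transposed with Tn5 in 1 reaction (25000 cells, 37 °C, 30 min), per the labels. The deposited table holds 63430 regions and, for each library, a score: a normalised read number rounded to whole numbers, as judged from the values. Its formula is not given in the sources used here. Per the file headers, the table also gives each region's distance to the assigned start site and the fraction of it inside the gene. The submitters' processing notes name the build mm10 and, without roles, DESeq, DESeq2 1.36.0, featureCounts, Picard 3.0.0, STAR 2.7.10a and Trimmomatic 0.39. Which peak caller was used, and any Tn5 offset, is not given in the sources used here. Each library has its own column.

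A region entered the test if 3 or more libraries reached a signal of 10 (61327 regions; 2103 did not). The fit was limma 3.58.1 (R 4.3.3) on log2(signal + 1), with its variance prior following the mean signal and no covariate. Benjamini-Hochberg adjustment ran over every tested region, with a threshold of 0.05. A count test, planned only for raw counts, was not used because the values are not counts. The signal worth of 1 read, 0.807 to 1.35, was estimated from the uneven use of small whole numbers, and from it the reads. The spread within groups lay near counting error, so calls may not allow for variation between cultures. The steps were tested on simulated data.

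The members and gene lists were chosen with earlier results of these data known. All assigned regions are named, and of the regions with no gene, those with the highest signal or the largest change at each locus, at most 4 a locus, the others being given to account for every member. Of each list, the 3 called regions with the largest change in each direction are named. Alternatives were 2 other pseudocounts, 2 other filters, 2 scalings, 6 separate libraries, a replicate block, each library left out, and windows of 25 and 100 kb. Coordinates are as printed in the table. RefSeq promoter sequences were matched by symbol for 6 of the 8 genes.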

Additional observations from a re-analysis of the deposited data

How the results depend on the processing

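Whether the replicate numbers pair the libraries was not settled. Same-numbered libraries of the 2 groups had small deviation correlations of 0.0138 to 0.0252, each library correlating best with its own number. Pairs of unlike number had -0.0165 to -0.000345. The fit reported above had no term for replicate number. With 6 separate libraries, the calls over all regions numbered 28176, against 25323 as reported, and those of the 6 related lists 60 against 52. Adding the replicate block to the 6 separate libraries gave 28725 and 61. Leaving out single libraries gave 12793 to 24706 calls over all regions and 20 to 49 in the lists, the lowest in both without GFP guide replicate 3, which leaves 1 GFP guide sample assumed to vary like the others. The median log2 fold change of the 30 tested proteoglycan regions was -0.42. It was -0.51 to -0.37 without single libraries, -0.39 with the block, -0.64 with a window of 25 kb and -0.30 with 100 kb. Of the 32 named regions of the lists, 16 kept their call in every alternative and none changed sign. Of the proteoglycan regions, the sign turned at the Omd region 3823 bp from the start, at a region 11.7 kb downstream of Fmod and at one 36.8 kb downstream of Ogn, only when a single library was left out. At the lowest signals, such as Prelp, the size of a change depends on the pseudocount.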

Other observations

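Dcn (decorin) and Lum (lumican), the collagen-coating members on chromosome 10, had no region under the rule, but the table holds regions with no gene around them by the RefSeq gene bounds. These were looked up after the other values had been seen, and are given with no test. A region inside Dcn, near its end (97516538 to 97516807), had 46, 59 and 57 in Actg1 guide libraries against 110, 132 and 125 in GFP guide libraries, a log2 fold change of -1.18 (SE 0.150). Before Dcn, 36.9 kb from its bounds, a region had 146, 118 and 119 against 34, 38 and 43, a log2 fold change of 1.67 (SE 0.147), and the next one, at 33.2 kb, had 28, 41 and 36 against 7, 9 and 12, a log2 fold change of 1.72 (SE 0.282). A region at 32.7 kb had 85, 96 and 83 against 51, 43 and 41, a log2 fold change of 0.98 (SE 0.157). The region nearest to Lum, 9.49 kb before it, had 49, 37 and 41 against 67, 52 and 65, a log2 fold change of -0.55 (SE 0.183). Of 7 tested regions within 50 kb of either gene, 3 had all Actg1 guide libraries above and 2 had them below all GFP guide libraries. Over all tested regions with no gene, 26.7% lay above and 26.4% below in this way, so nothing is read from these counts. The median log2 fold change of the 7 was -0.06.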
